A study of Rattus norvegicus with 8 samples.

Results

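Mapk10 (ENSRNOG00000002079), Dusp4 (ENSRNOG00000011921) and Map4k4 (ENSRNOG00000014013) are 3 genes of the mitogen-activated protein (MAP) kinase pathway, out of 32623 genes in the count table. They were selected on these data: all 3 are in the list of genes whose response to nerve injury differed by sex in the study, and Dusp4 is also in its list of genes that fell in injured males. RNA was measured in dorsal root ganglia (DRGs), which hold the cell bodies of sensory neurons together with satellite glia, Schwann cells, blood vessels and immune cells. The 8 libraries came from adult, gonadally intact Sprague-Dawley rats in 4 groups of 2: naïve males, males with chronic constriction injury (CCI), naïve females and females with CCI. In CCI the sciatic nerve is loosely tied, and here the L4-L6 DRGs of the operated side were pooled within each rat and taken on day 14. The naïve rats had no operation, so a difference between CCI and naïve rats includes the effects of surgery as well as of nerve injury. Total counts ranged from 39489103 to 60818457 per library. All 3 genes passed the filter on low counts, as did 16988 genes in all.

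MAP kinases are switched on by a relay in which one kinase phosphorylates the next, and switched off by phosphatases. The c-Jun N-terminal kinases (JNKs) form one branch, which responds to stress and cytokines, and injury to a peripheral nerve is known to activate it in sensory neurons. Map4k4 encodes an upstream kinase that feeds the JNK branch, Mapk10 encodes JNK3, the JNK found mainly in the nervous system, and Dusp4 encodes a nuclear phosphatase that inactivates MAP kinases and is itself induced by their activity.

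Mapk10 was the member that was higher after CCI in males. The RefSeq promoter table held an entry for Mapk10 and for neither Dusp4 nor Map4k4. The stretch of its promoter from 250 to 51 bases before the annotated start is shown because it holds the cAMP response element, a sequence bound by the CREB and ATF proteins, the family of the injury-induced factor ATF3 described further on. It lies on the plus strand at chr14:6802044-6802243 of GRCr8, and the capitals mark the element, whose first base is 78 bases before the start.
Mapk10: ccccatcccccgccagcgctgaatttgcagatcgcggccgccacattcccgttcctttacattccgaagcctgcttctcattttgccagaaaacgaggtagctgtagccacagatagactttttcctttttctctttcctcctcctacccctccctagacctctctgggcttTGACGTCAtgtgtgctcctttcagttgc
The search on both strands used TGACGTCA for this element and TGANTCA for the AP-1 element, the site of Jun and Fos proteins; neither pattern holds the other. The first was found in 316 of 33469 promoter windows of the same length (0.944%). It was found in 4 of 90 MAP kinase pathway genes with a window, a count that includes Mapk10, shown here because it holds the element. The AP-1 pattern was found in 1747 windows (5.22%) and had 0 matches in the Mapk10 window. A match describes these letters and is not evidence that a factor binds there. Whether the element or ATF3 bears on the level of Mapk10 was not tested.

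Expression is given as CPM, counts scaled to a common library size and composition, which are compared between libraries for 1 gene at a time, because gene length was not corrected for. Mapk10, the kinase of the branch, was measured at 186.6 and 199.8 CPM in the naïve males and at 281.5 and 284.6 in the males with CCI. The naïve females had 197.7 and 205.4 CPM and those with CCI had 200.3 and 204.2. Only the 2 CCI males stood apart, while the 6 other libraries fell in one narrow range. The mean CPM was 193 ± 9.31 (SD, n = 2) for naïve and 283 ± 2.22 for injured males, against 202 ± 5.47 for naïve and 202 ± 2.75 for injured females. The mean of CCI males lay 80.8 CPM above that of CCI females, the next highest group, and the remaining neighbours in the order overlapped.

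Dusp4, the phosphatase, had 56.4 and 51.2 CPM in the naïve males and 19.4 and 18.5 in the males with CCI. The naïve females had 57.6 and 46.5 CPM and those with CCI had 42.9 and 32.3. Both CCI males were lower than every other library, and the 2 CCI females lay between them and the naïve rats. From highest to lowest, the mean CPM was 53.8 ± 3.65 (SD, n = 2) for naïve males, 52.0 ± 7.80 for naïve females, 37.6 ± 7.56 for females with CCI and 19.0 ± 0.678 for males with CCI. The naïve sexes overlapped. The lower naïve female and the higher CCI female were only 3.58 CPM apart, less than the 11.03 CPM between the 2 naïve females, whereas the lower CCI female was 12.8 CPM above the higher CCI male. Of the 3 genes Dusp4 differed most between rats of one group, by 28.4% of the mean in CCI females and 21.2% in naïve females.

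Map4k4, the upstream kinase, had 618.8 and 538.8 CPM in the naïve males and 312.6 and 311.8 in the males with CCI. The naïve females had 440.9 and 393.5 CPM and those with CCI had 378.6 and 342.1. Its 4 groups did not overlap, with naïve males highest, followed by naïve females, CCI females and CCI males. Separation of 2 groups was common, in 51.2% to 72.8% of all genes over the comparisons below. The share of genes with all 4 groups apart was not computed. The means were 579 ± 56.5 CPM (SD, n = 2), 417 ± 33.5, 360 ± 25.8 and 312 ± 0.538 in that order. Naïve males were separated from naïve females by 97.9 CPM, more than the 80.0 CPM between the 2 naïve males. The gaps below were smaller than the spread within a group: 14.9 CPM between naïve and CCI females, against 47.4 between the 2 naïve females, and 29.5 CPM between CCI females and CCI males, against 36.6 between the 2 CCI females. Counts behind these values ranged from 896 to 32365 over the 3 genes, so that counting error was at most 3.34% of a value.

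**Figure D1:**
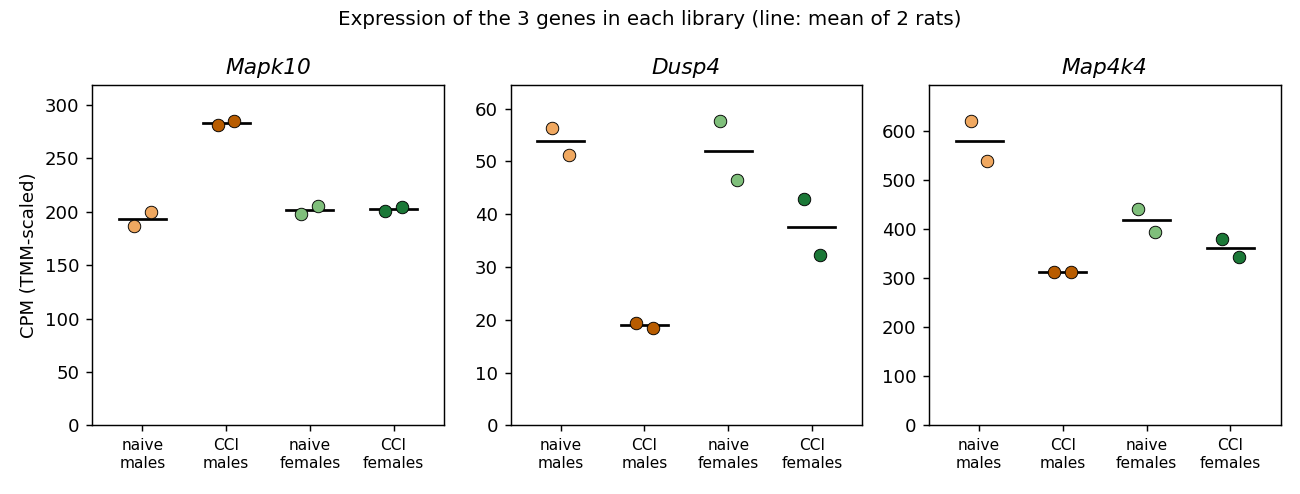
CPM of Mapk10, Dusp4 and Map4k4 in each of the 8 libraries (vertical axes start at 0 and differ by gene); points are rats and black lines are means of 2 rats. Mapk10 stands above the other groups in CCI males (281.5 and 284.6 CPM), Dusp4 is lowest in CCI males (19.4 and 18.5 CPM), and Map4k4 is highest in naïve males (618.8 and 538.8 CPM).

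After CCI in males, Mapk10 was higher and Dusp4 and Map4k4 were lower, and these values are given as a description because the genes were selected on this change or on its difference from females. The log2 fold change (log2FC, CCI against naïve) was 0.55 ± 0.070 (SE) for Mapk10, a 1.47-fold higher level, -1.499 ± 0.075 for Dusp4, a 2.83-fold lower level, and -0.89 ± 0.084 for Map4k4, a 1.85-fold lower level. All 3 met the call used between pairs of groups, which asked for a log2FC beyond 0.5 in either direction and for an edgeR adjusted p under 0.05, as did 9.05% of all genes tested on the higher side and 12.5% on the lower. The CPM of CCI and naïve males did not overlap for any of the 3, as for 72.8% of all genes. Ordered by log2FC, Dusp4 was 590th from the lowest, Map4k4 1640th from the lowest and Mapk10 1819th from the highest. Mapk10 lay just inside the threshold, and without naïve male 1 its log2FC was 0.499. Without CCI male 1, edgeR called 0 genes of the table, although 6494 had an unadjusted p under 0.05 and DESeq2 called 2474. The log2FC of the members were then 0.57 for Mapk10, -1.53 for Dusp4 and -0.88 for Map4k4.

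In females, no member met the call after CCI. Mapk10 had a log2FC of -0.0046 ± 0.078 (95% interval -0.19 to 0.18; adjusted p = 0.978), with overlapping groups. Dusp4 had a log2FC of -0.48 ± 0.15 (95% interval -0.83 to -0.12; adjusted p = 0.0907), and both CCI females were below both naïve females. Map4k4 had a log2FC of -0.22 ± 0.096 (95% interval -0.44 to 0.0028; adjusted p = 0.178), also without overlap. Among all genes, 3.69% were called higher and 2.0% lower in this comparison, and 59.5% did not overlap. By DESeq2 the adjusted p of Dusp4 was 0.0265 at a log2FC of -0.48, which is under the threshold of 0.5 in size. Over the other settings its adjusted p ranged from 0.00994 to 0.0890, and it met the call in none of them. Dusp4 depended on single libraries: its log2FC was -0.62 and met the call without naïve female 2, -0.69 without CCI female 1 and -0.28 without CCI female 2, both of the latter short of the call. The members were not selected on this comparison, but its libraries enter the difference between the sexes on which they were.

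Before injury, Mapk10 and Dusp4 were at similar levels in the sexes and Map4k4 was lower in naïve females, though no member met the call. The log2FC of naïve females against naïve males was 0.06 ± 0.077 for Mapk10 (95% interval -0.13 to 0.26; adjusted p = 0.635) and -0.04 ± 0.12 for Dusp4 (95% interval -0.36 to 0.27; adjusted p = 0.852), both with overlapping groups. For Map4k4 it was -0.47 ± 0.11 (95% interval -0.74 to -0.20; adjusted p = 0.105), and the groups did not overlap, as in 60.0% of all genes. By edgeR on these 4 libraries, 0.0177% of genes were called higher and 0.0530% lower in naïve females. DESeq2 called 1.83% of its 14677 genes higher and 4.96% lower. Over the other settings the adjusted p of Map4k4 ranged from 0.00123 (DESeq2) to 0.159, and its log2FC stayed under the threshold of 0.5 in size. Without naïve male 2 it was -0.56 and without naïve female 1 it was -0.54, both short of the call.

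After injury the order of the sexes was different. CCI females against CCI males had a log2FC of -0.48 ± 0.064 for Mapk10, 0.99 ± 0.14 for Dusp4 and 0.21 ± 0.078 for Map4k4, given as a description. The CPM did not overlap for any of the 3, as for 51.2% of all genes, and Dusp4 alone met the call, against 0.524% of all genes called higher and 0.536% lower in CCI females. Without CCI female 1 the log2FC of Dusp4 was 0.77 and fell short of the call. Between the sexes, then, Mapk10 and Dusp4 had close levels in naïve rats and separate levels after CCI. Map4k4 was lower in the females measured before injury and slightly higher in them after it, but neither difference met the call.

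The change after CCI in females minus the change in males, the interaction of sex and injury on which the genes were selected, was -0.55 ± 0.091 on the log2 scale for Mapk10, 1.03 ± 0.21 for Dusp4 and 0.68 ± 0.14 for Map4k4. At an adjusted p under 0.05 with no log2FC threshold, edgeR called Mapk10 and neither Dusp4 nor Map4k4, beside 1.04% of all genes with a more positive change in females and 0.547% with a more negative one. DESeq2, the tool of the study, called all 3, beside 6.63% of the 12377 genes it gave an adjusted p with a more positive change in females and 6.45% with a more negative one. Leaving out 1 library moved the Mapk10 value between -0.60 and -0.50, and its call was kept without naïve male 2 or naïve female 2 and lost without any of the 6 other libraries. Map4k4 was called without naïve male 2, at 0.78.

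**Figure D2:**
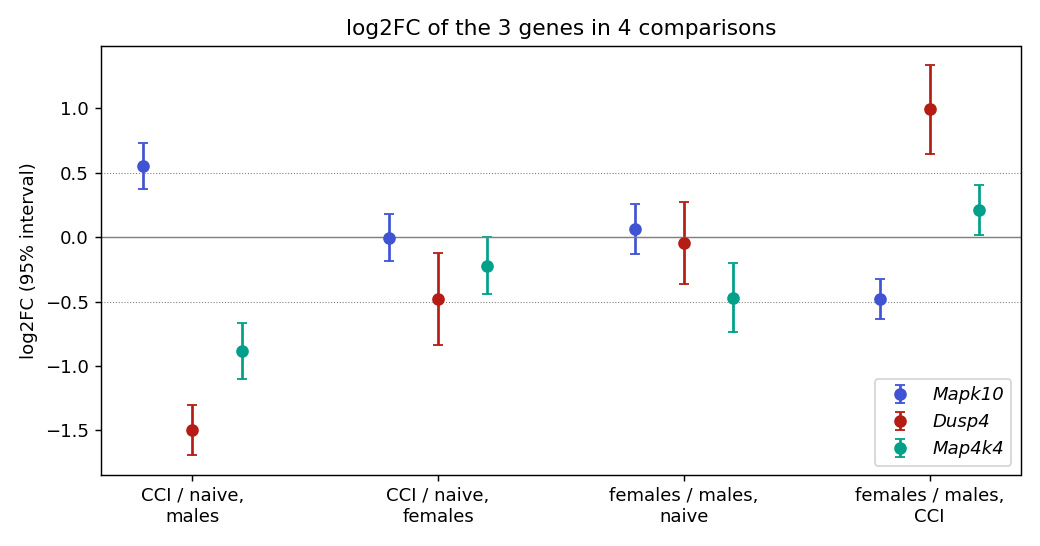
log2FC of Mapk10, Dusp4 and Map4k4 in 4 comparisons of 2 against 2 libraries; bars are 95% intervals and dotted lines mark an absolute log2FC of 0.5. In males Mapk10 lies at 0.55 and Dusp4 at -1.499, in females the values are nearer 0, and Map4k4 is the member whose interval lies below 0 between the naïve sexes.

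DRGs are a mixture of cells, and in bulk RNA fewer cells of a type and less RNA per cell cannot be told apart. Marker lists are set beside the members here, but they could be read only for the 1961 identifiers with a symbol. Most of these symbols come from lists that the study made from these libraries. All the matched neuronal and Schwann cell markers below are in the same list of genes that responded differently by sex as the members, so that a different movement in males and females was fixed by that choice. Of 12 sensory neuron markers 7 could be matched, and their summed level was 19529 to 22003 CPM in the naïve males and 32120 to 33168 in the males with CCI. In females it was 24028 to 24701 CPM without and 25522 to 30280 with CCI. After CCI 6 of the 7 were called higher in males and 1 in females, beside 9.05% and 3.69% of all genes. The median log2FC of the 7 was 0.65 in males and 0.18 in females. Mapk10 had a log2FC of 0.55 in males beside that median of 0.65, and of -0.0046 in females beside that of 0.18.

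Of 12 Schwann cell and myelin markers 6 could be matched, summing to 10908 to 13284 CPM in the naïve males and 3317 to 3472 in the males with CCI. In females the sum was 7649 to 9395 CPM without and 4258 to 5521 with CCI. All 6 were called lower in males and 2 in females, against 12.5% and 2.0% of all genes. The median log2FC of the 6 was -1.52 in males and -0.43 in females, beside -1.499 and -0.48 for Dusp4. Between the sexes the medians were -0.43 in naïve and 0.47 in CCI rats, beside -0.04 and 0.99 for Dusp4. Fibroblast and mural cell markers, 4 of 7 matched, were all called lower in males, with log2FC from -0.98 to -0.52. In females they ranged from -0.37 to 0.016. A list of 10 transcripts that are often kept in the nucleus with unspliced introns, all matched, was called lower in full in males and for 4 genes in females. Its symbols also come from the study's tables, so these counts are not independent evidence. This last list was also highest in naïve males, at 2426 to 3105 CPM against 1105 to 1511 in naïve females, as Map4k4 was. After CCI its sum was 988 to 998 CPM in males and 835 to 960 in females. Red blood cell genes, all 7 matched, were called lower in females. All 7 are in the study's list of genes that fell most in injured females, so that call was fixed by the choice. The 2 naïve males were far apart in the sum of the 7, at 130 and 1388 CPM. Satellite glia, leukocytes and skeletal muscle had 1 matched marker each (Fabp7, Cd163 and Actn3) and endothelial cells had none. Fabp7 fell in both sexes (-0.88 in males and -0.73 in females), Actn3 rose in males (2.57), and Cd163 was called higher in CCI females than in CCI males (1.77), with a log2FC of 1.07 between the naïve sexes. No matched marker was at 0 in any library. The part of cell composition or RNA quality in the members' values was not tested.

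**Figure D3:**
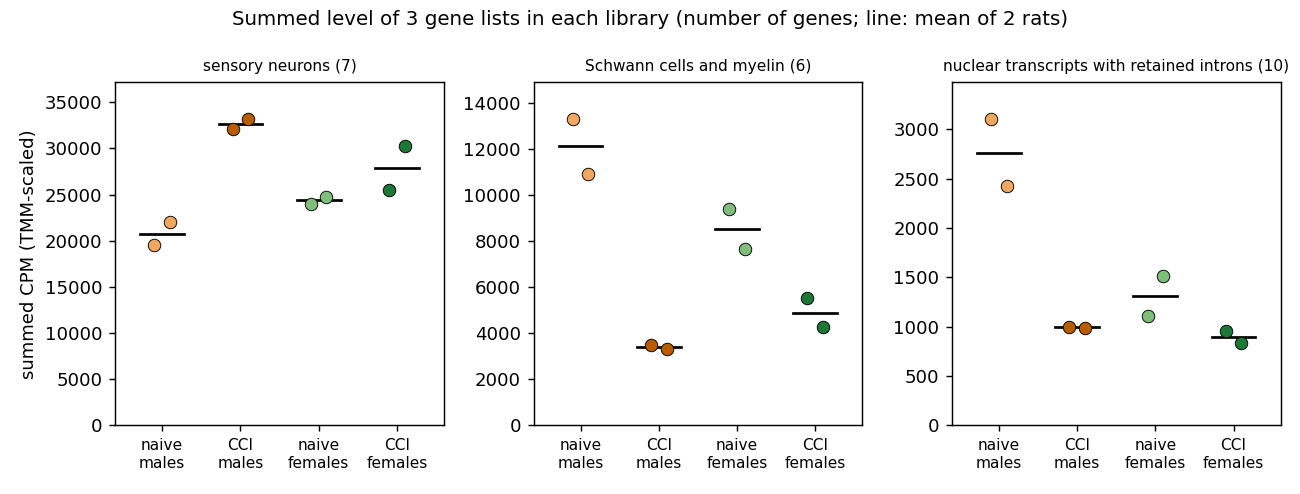
Summed CPM of sensory neuron markers, Schwann cell and myelin markers and nuclear transcripts with retained introns in each library (vertical axes start at 0 and differ by panel); points are rats and black lines are means of 2 rats. The neuronal sum is highest in CCI males (32120 to 33168 CPM), the Schwann cell sum is lowest there (3317 to 3472 CPM), and the nuclear sum is highest in naïve males (2426 to 3105 CPM).

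The genes whose log2 CPM followed each member most closely were taken from 1841 genes with a symbol, by Pearson's r over the 8 libraries, which share the differences between groups described above. Most of the symbols come from the study's lists made from these libraries. The highest r of so many genes is large by selection, so the values are a description and do not assign a cell type. Mapk10 was followed by Pirt, a membrane protein of sensory neurons that regulates TRP channels (r = 0.987), Pnkd (0.985) and Cntn4, a neuronal adhesion molecule (0.982). Dusp4 was followed by Drp2, a protein of myelinating Schwann cells and one of the markers above (0.993), Fxyd6, a regulator of the sodium pump (0.988), and Zcchc24 (0.986). Map4k4 was followed by Wwtr1, which encodes the transcriptional co-activator TAZ (0.995), Dnal1 (0.993) and Phldb1 (0.993).

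Of 112 genes of the MAP kinase pathway in lists of kinases, phosphatases, scaffolds and target genes, 19 could be matched to an identifier, the 3 members and 16 others. Of these 16, 15 are in the study's list of genes that responded differently by sex. Their counts are therefore not independent evidence of a direction, and neither is the adjusted p of a single gene below. Tnik and Atf3 are also among the genes that the study found to rise most after CCI, Tnik in females and Atf3 in both sexes. The p38 kinases could not be examined. In males 3 of the 16 rose after CCI and 5 fell, beside 9.05% of all genes called higher and 12.5% lower. The median log2FC of the 16 was -0.31 against -0.011 for all genes. In females 3 rose and none of the 16 was called lower, beside 3.69% and 2.0% of all genes. The median there was 0.11 against -0.018. The other 8 genes in males and 13 in females did not meet the call.

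Among the kinases, Mapk9, which encodes JNK2, was measured at 160.8 and 170.6 CPM in the naïve males and 226.6 and 235.2 in the males with CCI. The naïve females had 175.4 and 180.5 CPM and those with CCI had 198.9 and 197.1. Its log2FC in males was 0.48 ± 0.069 (adjusted p = 0.00854), under the threshold of 0.5, and 0.14 ± 0.078 in females (adjusted p = 0.262). Map2k4, a kinase that activates JNKs, rose in males at a log2FC of 0.51 ± 0.075 (adjusted p = 0.0091). In females its estimate was close to 0. Thus the JNK kinases Mapk9 and Mapk10 and an activating kinase, Map2k4, had log2FC between 0.48 and 0.55 in males. The neuronal markers had a median of 0.65 in the same libraries. Map3k11 (-0.45) and Taok2 (-0.30), named after their values were seen, also had an adjusted p under 0.05 in males with a log2FC under the threshold.

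Tnik, which belongs to the same kinase family as Map4k4, went the other way from it. It had 36.6 and 37.98 CPM in the naïve males and 68.4 and 70.9 in the males with CCI. The naïve females had 32.6 and 35.9 CPM and those with CCI had 84.6 and 91.4. It rose in both sexes, at a log2FC of 0.91 ± 0.069 in males (adjusted p = 0.00565) and 1.35 ± 0.090 in females (adjusted p = 0.000333). The scaffold gene Mapkbp1, whose product binds JNK, fell in males at -1.22 ± 0.14 (adjusted p = 0.00615) and had a log2FC of -0.38 ± 0.14 in females (adjusted p = 0.132).

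The phosphatases Dusp6 and Dusp7, which act mainly on ERK, had log2FC nearer 0 than that of Dusp4 in both sexes. Dusp6 had a log2FC of -0.34 ± 0.10 in males (adjusted p = 0.0541) and 0.17 ± 0.087 in females (adjusted p = 0.24). For Dusp7 the values were -0.20 ± 0.059 in males (adjusted p = 0.0504) and 0.29 ± 0.11 in females (adjusted p = 0.142). Neither gene met the call in either sex.

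Of the target genes, Atf3, a transcription factor induced in injured sensory neurons, rose most. Its CPM were 11.7 and 11.04 in the naïve males and 67.7 and 70.9 in the males with CCI, with 12.7 and 11.8 in the naïve females and 122 and 133 in those with CCI. The log2FC was 2.61 ± 0.072 in males (adjusted p = 0.00315) and 3.37 ± 0.094 in females (adjusted p = 8.12e-06). Fos, an immediate early gene whose product pairs with Jun, rose in females at 0.90 ± 0.18 (adjusted p = 0.0255) and had a log2FC of -0.32 ± 0.18 in males (adjusted p = 0.223). Of 4 matched genes that respond to or limit ERK activity, 3 fell in males: Etv4 at -1.57 ± 0.10, Egr3 at -1.10 ± 0.11 (both adjusted p = 0.00565) and Egr2, which also drives myelin genes in Schwann cells, at -0.60 ± 0.13 (adjusted p = 0.0212). In females these 3 genes had log2FC of -0.55, -0.27 and 0.080 and did not meet the call. The fourth, Spred3, an inhibitor of the ERK branch, had a log2FC of 0.12 ± 0.13 in males (adjusted p = 0.503) and 0.33 ± 0.18 in females (adjusted p = 0.276). Nfatc1, a calcium-responsive factor, fell in males at -0.74 ± 0.079 (adjusted p = 0.00573) and had -0.20 ± 0.11 in females (adjusted p = 0.278).

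**Figure D4:**
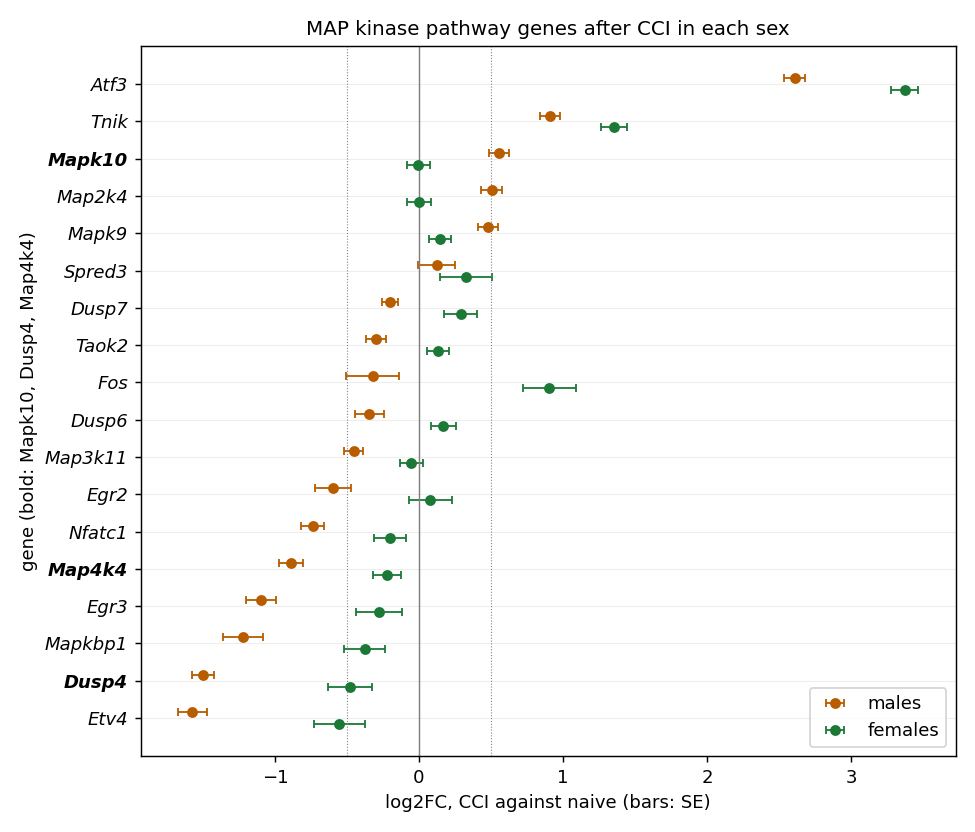
log2FC after CCI in males and in females for the matched MAP kinase pathway genes reported here, ordered by the value in males; bars are SE, dotted lines mark an absolute log2FC of 0.5, and gene names in bold are the 3 members. Atf3 and Tnik lie above 0.5 in both sexes, Mapk10 and Map2k4 do so in males, and Dusp4 and Etv4 have the lowest values in males.

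Between the naïve sexes, 0 of the 16 other pathway genes were called by edgeR, although 11 had an unadjusted p under 0.05, as had 4345 of all 16988 genes. DESeq2 called 6, all lower in females, beside the 4.96% of all genes given above. The median log2FC of the 16 was -0.33, against -0.0058 for all genes. Between CCI females and CCI males, 1 of the 16 was called, beside 0.524% of all genes called higher in females. This was Atf3, higher in females at 0.89 ± 0.073 (adjusted p = 0.00835). The median of the 16 was 0.13 against 0.0028 for all genes. For the interaction the median was 0.51 against 0.016, and 1.04% of all genes were called with a more positive change in females. Atf3 was likewise the only one of the 16 called for the interaction, at 0.78 ± 0.11 (adjusted p = 0.0412). That call was kept without naïve male 2 or naïve female 2 and lost without any of the 6 other libraries, at values from 0.72 to 0.84. DESeq2 called 15 of the 16 for the interaction, 12 of them with a more positive change in females, where it called 6.63% of all genes. The study's list for this contrast, made with DESeq2 on these libraries, holds 15 of the 16. That count was thus largely fixed by the choice and is not independent evidence.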

How the data were processed

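The authors deposited 1 table of raw counts per Ensembl gene for 8 libraries. Per the study's methods, strand-specific, poly(A)-selected libraries were sequenced in 2 batches, aligned to rn6 with HISAT2 and counted with featureCounts; base calling used CASAVA 1.8.2 per the submitters' processing notes. The batch of each library is not named in the sources used here. Whether batch and group coincide is therefore not known, and the 2 cannot be separated. Per the study's methods, samples of each batch were sequenced again in 1 lane to look for batch effects, and no correction was made. Each library is 1 rat, and the replicates of every group differed by more than sampling noise.

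The tools were R 4.3.3, edgeR 4.0.16 and DESeq2 1.42.0. Genes were kept by filterByExpr (minimum count 10, minimum total 15). Counts were scaled by TMM over the libraries in each fit, and over all 8 for CPM. Log2 CPM used a prior count of 2. Each comparison used edgeR's quasi-likelihood test on its 4 libraries (the interaction, all 8) with Benjamini-Hochberg adjustment over all 16988 genes; intervals are 95%. An exact test on 2 against 2 rats cannot go below p = 0.333. On simulated data the fit recovered the sizes set and nearly all changed genes of middle or high expression but few of low expression, and more of its calls were false than the adjusted p states. This was accepted after the outcome was seen.

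Members, lists and alternatives were chosen with earlier results of these data known. The text names the members, every matched JNK, MAP kinase phosphatase and MAP4 kinase gene, at most 3 called genes of each other list per comparison, and the 3 genes most correlated with each member. Map3k11, Taok2 and Spred3 were named outside this rule, as edgeR called them in no comparison. Symbols came from the study's tables. The values of 1 matched pathway gene are not reported here, though it is in the counts and medians. The promoter came from RefSeq (GRCr8).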

Additional observations from a re-analysis of the deposited data

Results flagged for a closer look

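By edgeR's interaction test there was a response to CCI that was not the same in males and females for 2 genes of the pathway. For Mapk10 the change in females minus that in males was -0.5458 on the log2 scale, from a higher level after CCI in males and a difference within the spread in females, and the gene had been selected on this contrast. For Atf3 it was 0.778861, from a rise in both sexes that was larger in females. Atf3 is also in the study's list for this contrast. DESeq2 called more genes, among them all 3 members and 15 of the 16 other pathway genes. The members and 15 of these 16 are in the study's list for this contrast, made with DESeq2, so these counts are not independent evidence. Both edgeR calls were lost without any 1 of 6 of the 8 libraries.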

How the results depend on the processing

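The settings tried were DESeq2, DESeq2's size factors, upper-quartile factors, no filter, at least 10 counts in every library, edgeR's version 4 fit, the replicate number as a block and all 8 libraries in one fit. Under them the members kept their direction in every comparison, except Mapk10 in females, whose log2FC of -0.0046 became 0.0050 with all 8 libraries in one fit. Dusp4 between the CCI sexes met the call in 7 of 8 settings and lost it with the replicate block, at 0.98. In the interaction Mapk10 was called in 7 of 7 settings, Map4k4 in 5 and Dusp4 in 4. Counts of genes called over the whole table moved more. Between the naïve sexes 12 genes became 996 with DESeq2, 130 with no filter, 1 with the strict filter, 6 with the replicate block and 906 with all 8 libraries in one fit, and the other pathway genes called went from 0 to 6, 1 and 5 with DESeq2, no filter and all 8 libraries. Between the CCI sexes 180 became 394 with DESeq2, 284 with no filter and 68 with the replicate block. For the interaction 270 became 1618 with DESeq2, 1032 with no filter and 532 with the strict filter, and the other pathway genes went from 1 to 15, 8 and 3. The causes were not tested.

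The replicate numbers were not taken to pair libraries: the log2 CPM difference of replicate 1 and 2 correlated at 0.731 between naïve and CCI males, at -0.0079 between naïve and CCI females, and from -0.020 to 0.142 between the sexes. The count columns of replicate 1 in both male groups carry a letter a that no source explains. The libraries numbered 1 had less Mapk10 and more Dusp4 and Map4k4 than those numbered 2 in all 4 groups, and with the replicate block the interaction of all 3 was called, while Dusp4 between the CCI sexes was not.

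Leaving out 1 library gave 0 (without CCI male 1) to 3722 calls in males and 84 (without CCI female 2) to 1836 (without naïve female 2) in females, from 3663 and 967. It gave 6 to 327 between the naïve sexes, 32 to 656 between the CCI sexes and 0 to 563 for the interaction. Of the interaction fits, 3 gave 0 calls by edgeR: 2728 genes had an unadjusted p under 0.05 and DESeq2 called 558 without naïve male 1, 3147 and 922 without CCI male 2, and 3887 and 1665 without CCI female 2. The other pathway genes called ranged over 0 to 10 in males, 2 to 5 in females, 0 to 1 between the naïve sexes, 0 to 2 between the CCI sexes and 0 to 2 for the interaction. The log2FC of Mapk10 ranged from 0.50 to 0.60 in males, -0.036 to 0.027 in females, -0.50 to -0.46 between the CCI sexes and -0.60 to -0.50 for the interaction. That of Dusp4 ranged from -1.57 to -1.44, -0.69 to -0.28, 0.77 to 1.18 and 0.81 to 1.23, and between the naïve sexes from -0.19 to 0.11. For Map4k4 the ranges were -0.98 to -0.79 in males, -0.30 to -0.14 in females, 0.14 to 0.28 between the CCI sexes and 0.58 to 0.78 for the interaction. The sign turned for Dusp4 between the naïve sexes without naïve male 1 (0.026) or naïve female 2 (0.11), and for Mapk10 in females without naïve female 2 (0.027) or CCI female 1 (0.019).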
